A study of Drosophila melanogaster with 18 samples.

Results

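The vitelline membrane genes examined here are 8 Drosophila melanogaster genes, Vm26Aa, Vm26Ab, Vm26Ac, Vm32E, Vm34Ca, psd, fs(1)N and tsl, of the 17611 genes in the count table. They were taken by symbol as components of the vitelline membrane, and all 8 were found and tested. Poly-A RNA of ovaries, with the tissue labelled as stages 1 to 7, was sequenced in 18 libraries from 2 inbred wild-type lines named LP (low plasticity) and HP (high plasticity). Each line was sampled in diapause at 12 °C, as persistently reproductive flies also at 12 °C, and as an age control of 28-day-old flies at 25 °C, with 3 libraries called biological replicates in each of the 6 groups. Neither the age of the 12 °C flies nor the number of ovaries per library was stated. Temperature therefore differs between either 12 °C group and the age control, and within a line the 2 comparisons with the age control share those 3 control libraries. Each line is 1 inbred genotype, so a difference between LP and HP is a difference between these genotypes.

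The vitelline membrane is the innermost layer of the insect eggshell. In Drosophila, follicle cells secrete its small structural proteins around the growing oocyte in mid-oogenesis, after the previtellogenic stages, and the layer is later cross-linked. It is covered by the chorion, which follicle cells add at the end of oogenesis, and it also holds the cues that pattern the ends of the embryo. Vm26Aa, Vm26Ab, Vm26Ac, Vm32E and Vm34Ca encode such structural proteins, and psd encodes Palisade, a secreted protein needed to assemble the layer. The other two differ in kind. fs(1)N (Nasrat) is a germline gene whose product is needed for the integrity of the membrane and for terminal patterning, and tsl (torso-like) encodes a secreted terminal-patterning cue made by small groups of follicle cells at the ends of the egg chamber. The first 6 are called the structural genes below, a grouping made with the values known.

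Of the 8 genes, 6 lie on chromosome arm 2L. Positions count from 1, are taken from the deposited table and match the Ensembl BDGP6.54 annotation. Vm26Ab (5957004 to 5957639, plus strand), Vm26Ac (5958005 to 5958631, minus), Vm26Aa (5959596 to 5960340, minus) and psd (5963087 to 5964951, minus) form a cluster of 4 genes over 7948 bases with no other gene inside it. The spaces between these neighbours are 365, 964 and 2746 bases. Vm32E (11171167 to 11171665, minus) and Vm34Ca (13411141 to 13411631, minus) lie alone on the same arm. The 5 genes named Vm have 1 exon each and exonic lengths of 491 to 745 bases, and psd has 2 exons. fs(1)N is on X (1322513 to 1329438, plus) with 7 exons and 6581 exonic bases, and tsl is on 3R (21778114 to 21782536, minus). None of the 8 shares exonic bases with another annotated gene.

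Total counts were 14352846 to 21343992 per library. Levels are CPM, read counts scaled to a common library size by the TMM method. Log2 fold changes, their standard errors (SE) and adjusted p-values come from 1 edgeR quasi-likelihood fit to all 18 libraries, with Benjamini-Hochberg adjustment over 9037 tested genes, and a gene was called at an adjusted p under 0.05. The p-values measure the spread between these libraries, and no label says how the replicates were raised. In bulk ovaries, fewer cells of a type and less RNA per cell cannot be told apart. The chorion genes, made late in oogenesis, were present in libraries labelled as stages 1 to 7: the 12 listed genes took 0.651 to 0.798% of counts in LP age controls and 0.352 to 0.660% in HP age controls. Their share was 0.000593 to 0.00273% in LP diapause and 0.000364 to 0.000627% in HP diapause.

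One library stood apart for these genes. LP diapause replicate 2 had 0.268% of its counts in the 6 structural genes, against 0.107% in replicate 1 and 0.105% in replicate 3 of the same group. Its share of chorion genes was 0.00273%, also the highest of its group. The 6 fat body markers took 0.00409% of its counts, against 0.000181% in replicate 1 and 0.000812% in replicate 3, and their part in its values was not tested. The fold changes of the 8 genes that use LP diapause are therefore given with and without it where it changed a call or moved the value by over 1.5 times, and other LP diapause values include it unless stated. It was singled out by its values of these genes, so p-values without it show only how far the calls depend on it. The fit estimates the spread of each gene over all 18 libraries. This library therefore also enters the SEs and p-values of comparisons without LP diapause, where its part was not tested.

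For each structural gene, HP diapause had the lowest group mean and LP age control the highest. The range of group means was 306-fold for Vm32E, 193-fold for Vm26Ac, 83.3-fold for Vm34Ca, 16.0-fold for psd, 15.1-fold for Vm26Aa and 4.81-fold for Vm26Ab. For fs(1)N it was 1.70-fold and for tsl 2.14-fold. HP diapause did not overlap with the next group up in any of the 6 structural genes. That next group was LP diapause for Vm34Ca and HP reproductive for the others. Without overlap, 14.4% of tested genes were lower in HP diapause than in HP reproductive ovaries, and 24.3% were lower than in LP diapause.

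**Figure D1:**
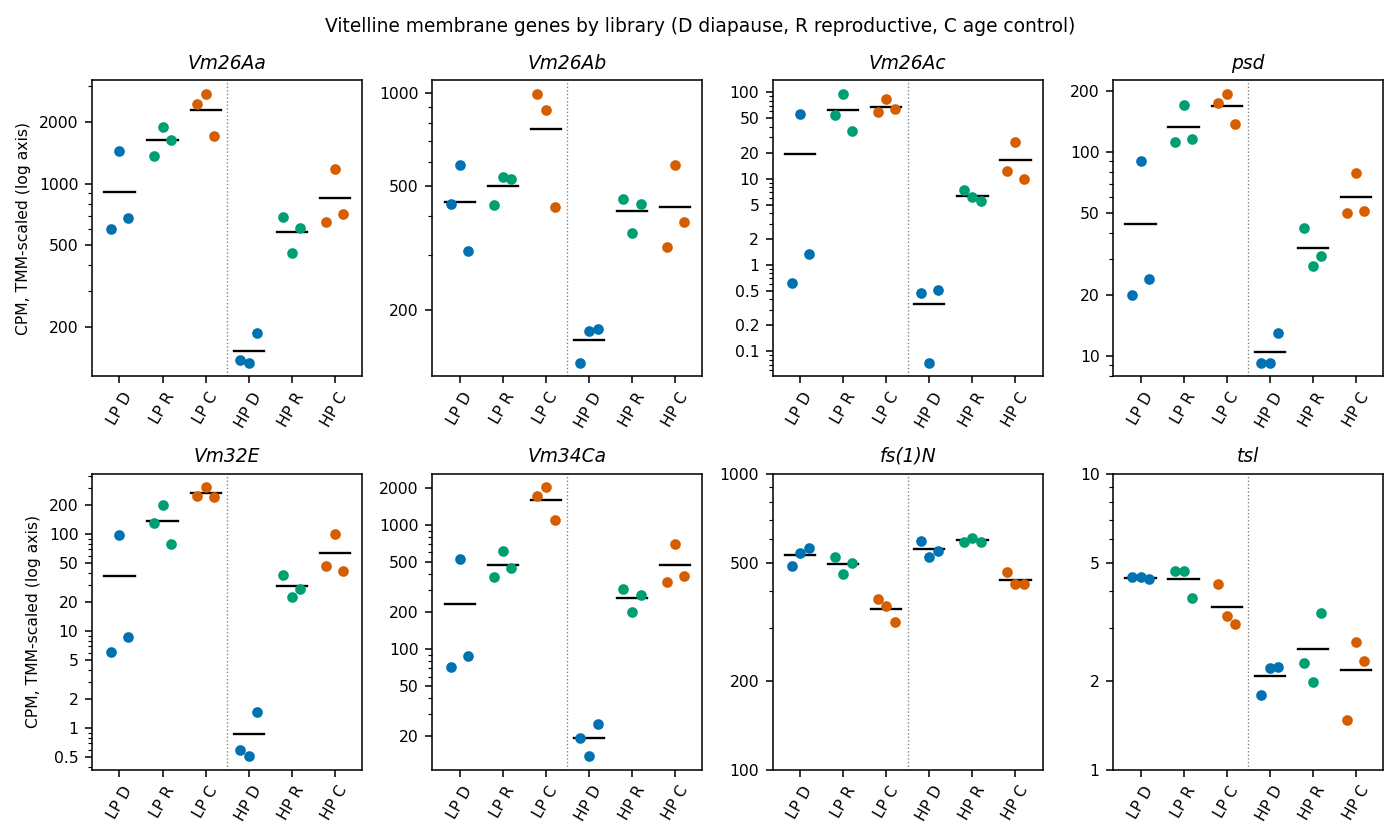
Level of each of the 8 genes in every library, in TMM-scaled CPM on a log axis, with 3 points per group and a line at the group mean. LP groups stand left of HP groups, and D, R and C mark diapause, reproductive and age control. The 3 HP diapause points of the 6 structural genes lie below all other groups, and 1 LP diapause point, replicate 2, lies far above its neighbours in 5 of them.

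Vm26Aa encodes one of the major structural proteins of the layer. In LP its level was 599.7, 1442 and 683 CPM in diapause, 1366, 1895 and 1633 CPM in reproductive ovaries and 2449.9, 2760.4 and 1707 CPM in age controls. In HP it was 137, 133 and 187 CPM in diapause, 686, 461 and 608 CPM in reproductive ovaries and 653, 1187 and 714 CPM in age controls. The HP diapause libraries stood below both other HP groups with no overlap. In LP, replicate 2 put the top of the diapause range inside the reproductive range.

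Vm26Ab, the neighbour on the opposite strand, had the smallest range of group means among the 6 structural genes. LP had 437, 583 and 309 CPM in diapause, 435, 535 and 528 CPM in reproductive ovaries and 992, 877 and 427 CPM in age controls. HP had 135, 170.1 and 173 CPM in diapause, 454, 353 and 436 CPM in reproductive ovaries and 319, 584 and 383 CPM in age controls. All 3 LP groups overlapped, while HP diapause again lay apart from both other HP groups.

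Vm26Ac, between Vm26Ab and Vm26Aa, encodes another small protein of the layer. In LP it had 0.623, 55.8 and 1.34 CPM in diapause (12, 1023 and 22 counts), 55.2, 96.3 and 35.3 CPM in reproductive ovaries and 58.5, 83.0 and 63.8 CPM in age controls. In HP it had 0.479, 0.0736 and 0.513 CPM in diapause (8, 1 and 9 counts), 7.40, 6.05 and 5.44 CPM in reproductive ovaries and 12.3, 26.9 and 9.89 CPM in age controls. LP diapause replicates 1 and 3 were close to the HP diapause level, and replicate 2 was at the level of LP reproductive ovaries.

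Vm32E followed the same shape. It had 6.17, 97.8 and 8.74 CPM in LP diapause, 131, 198 and 78.6 CPM in LP reproductive ovaries and 246, 306 and 242 CPM in LP age controls. The HP values were 0.598, 0.515 and 1.48 CPM in diapause (10, 7 and 26 counts), 37.7, 22.7 and 27.0 CPM in reproductive ovaries and 47.4, 101 and 42.2 CPM in age controls. In HP the 3 states did not overlap, and in LP diapause and reproductive ovaries overlapped through replicate 2 of diapause.

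Vm34Ca had 72.2, 528 and 88.2 CPM in LP diapause, 377, 611 and 447 CPM in LP reproductive ovaries and 1704, 2016 and 1086 CPM in LP age controls. It had 19.3, 13.7 and 24.7 CPM in HP diapause, 307, 198 and 272 CPM in HP reproductive ovaries and 344, 697 and 388 CPM in HP age controls. The age controls were above both other states without overlap in each line.

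For psd the LP levels were 19.9, 90.0 and 23.8 CPM in diapause, 112, 170.4 and 116 CPM in reproductive ovaries and 174, 193 and 137 CPM in age controls. The HP levels were 9.27, 9.27 and 12.9 CPM in diapause, 42.5, 27.7 and 31.1 CPM in reproductive ovaries and 50.1, 78.7 and 51.6 CPM in age controls. It was the only structural gene whose LP diapause libraries all lay below the LP reproductive ones.

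Levels of different genes were compared per kilobase of exonic length (CPM per kb). In LP diapause the order was Vm26Aa (1219 ± 623 CPM per kb, SD, n = 3), Vm26Ab (697 ± 215), Vm34Ca (468 ± 527), fs(1)N (80.5 ± 5.47), Vm32E (75.3 ± 105), Vm26Ac (30.7 ± 50.4), psd (28.9 ± 25.5) and tsl (2.16 ± 0.0185). In that group the ranges of neighbours in the order overlapped except between Vm34Ca and fs(1)N and between psd and tsl. LP diapause replicate 2 carried several of these means: over replicates 1 and 3 alone Vm34Ca averaged 163, Vm32E 14.9, psd 14.2 and Vm26Ac 1.57 CPM per kb, and Vm26Ac came last, behind tsl (2.15). HP diapause was led by Vm26Ab (250.4 ± 33.5 CPM per kb) and Vm26Aa (205 ± 39.9), whose ranges overlapped, then fs(1)N (84.4 ± 5.47) and Vm34Ca (39.2 ± 11.2). In LP age controls Vm34Ca (3263 ± 964 CPM per kb) and Vm26Aa (3095 ± 727) overlapped at the top, and fs(1)N was seventh (53.2 ± 4.83). HP age controls were led by Vm26Aa (1143 ± 392 CPM per kb), Vm34Ca (970.4 ± 392) and Vm26Ab (674 ± 217), with overlap between neighbours.

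Diapause against reproductive ovaries, both from 12 °C, is the comparison in which temperature does not differ. In HP, 2 of the 8 genes fell and none rose, where 0.852% of tested genes were called, 0.653% lower and 0.199% higher. These were Vm26Aa (log2 fold change −1.94, SE 0.36, adjusted p = 0.037) and Vm34Ca (−3.74, SE 0.72, adjusted p = 0.043). The other 4 structural genes were also lower in every HP diapause library than in any HP reproductive one, an order that 14.4% of tested genes showed, but were not called: Vm26Ab −1.38 (SE 0.32, adjusted p = 0.072), Vm26Ac −4.05 (SE 2.09, adjusted p = 0.36), Vm32E −5.01 (SE 1.34, adjusted p = 0.11) and psd −1.68 (SE 0.54, adjusted p = 0.16). fs(1)N and tsl overlapped between the groups, at −0.10 (SE 0.07) and −0.29 (SE 0.25). These SEs are not the spread of HP libraries alone, since the fit also used the LP libraries, LP diapause replicate 2 included. The median over the 8 genes was −1.81, beside 0.00 over all tested genes. The Vm26Aa call was kept in 1 of 6 fits with 1 library left out (adjusted p 0.044 to 0.16) and the Vm34Ca call in 0 of 6, while the log2 fold changes stayed within −2.11 to −1.81 and −3.96 to −3.55. DESeq2 called 6 of the 8, where it called 3.47% of tested genes.

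In LP the same comparison called 0 of the 8 genes, where 1.45% of tested genes were called in either direction. At an unadjusted p under 0.05 the count was 3 of 8, where 16.5% of tested genes passed, and DESeq2 called 1 of 8, where it called 4.88%. The log2 fold changes were −0.84 for Vm26Aa (SE 0.34, adjusted p = 0.23), −0.17 for Vm26Ab (SE 0.31, adjusted p = 0.84), −1.69 for Vm26Ac (SE 0.94, adjusted p = 0.40), −1.85 for Vm32E (SE 0.77, adjusted p = 0.25), −1.06 for Vm34Ca (SE 0.62, adjusted p = 0.43) and −1.57 for psd (SE 0.46, adjusted p = 0.11). fs(1)N was at 0.10 (SE 0.07) and tsl at 0.02 (SE 0.23). Only psd was separated between the groups, lower in diapause, as 12.7% of tested genes were, while 0 of the 8 were separated with diapause higher, as 13.4% of tested genes were. The median over the 8 genes was −0.95, beside 0.01 over all tested genes.

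This result depended on LP diapause replicate 2, which was singled out by its high values of these same genes. The p-values without it therefore describe that dependence and are no separate evidence of a fall in diapause. With that library left out, 5 of the 8 genes were called, all lower, where 2.67% of the 9248 genes then tested were called. Vm26Ac was at −6.01 (adjusted p = 0.0016), Vm32E at −4.19 (adjusted p = 0.0028), psd at −2.60 (adjusted p = 0.00087), Vm34Ca at −2.58 (adjusted p = 0.0079) and Vm26Aa at −1.34 (adjusted p = 0.038). Vm26Ab stayed uncalled at −0.42 (adjusted p = 0.58). Leaving out any 1 of the other 5 libraries of this comparison gave 0 calls among the 8 genes.

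**Figure D2:**
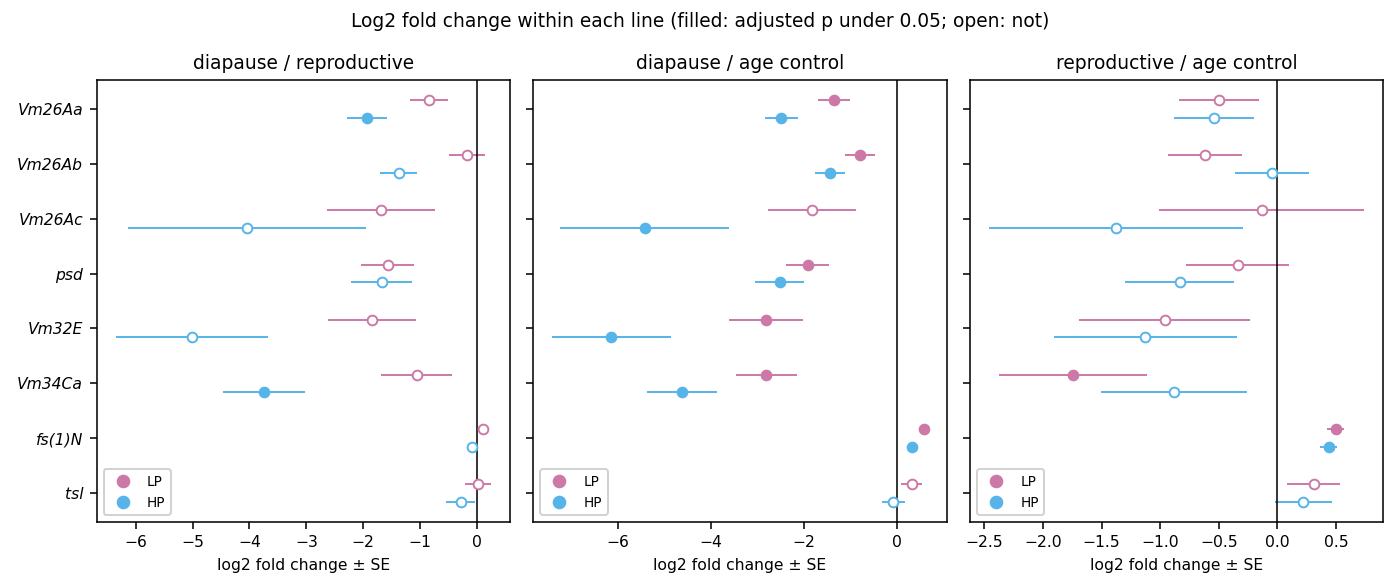
Log2 fold change of each gene within a line, with the SE as a bar, for diapause over reproductive, diapause over age control and reproductive over age control. LP points are above HP points, filled where the adjusted p is under 0.05. The 6 structural genes lie left of 0 in all panels, while fs(1)N lies right of 0 in both comparisons with the age control.

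Averaged over both lines, 5 of the 8 genes were lower in diapause, where 9.46% of tested genes were called, 5.94% lower and 3.52% higher. Vm32E was at −3.43 (SE 0.77, adjusted p = 0.019), Vm34Ca at −2.40 (SE 0.48, adjusted p = 0.012), psd at −1.62 (SE 0.35, adjusted p = 0.017), Vm26Aa at −1.39 (SE 0.25, adjusted p = 0.0077) and Vm26Ab at −0.78 (SE 0.22, adjusted p = 0.0493). Vm26Ac was at −2.87 (SE 1.11, adjusted p = 0.12), and was called at −5.03 (adjusted p = 0.00041) without LP diapause replicate 2. Without that library Vm32E was at −4.60, Vm34Ca at −3.16, psd at −2.14 and Vm26Aa at −1.64. The Vm26Ab call was kept only in that 1 of 12 fits with a library left out. fs(1)N was at 0.00 (SE 0.05) and tsl at −0.14 (SE 0.17). In the same comparison 6 of 10 muscle markers were higher and 0 lower, with a median log2 fold change of 0.49, and their part in the result was not tested.

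Whether diapause lowered these genes more in HP than in LP was tested as the difference between the lines' fold changes (LP minus HP). For diapause against reproductive ovaries 0 of the 8 were called, as were 0% of tested genes. At an unadjusted p under 0.05 there were 3 of 8, where 4.05% of tested genes passed, and DESeq2 called 0. The differences with the smallest p were 2.68 for Vm34Ca (SE 0.93), 1.21 for Vm26Ab (SE 0.45) and 1.09 for Vm26Aa (SE 0.48), and without LP diapause replicate 2 they were 1.16, 0.96 and 0.59. Leaving out that library also moved Vm26Ac from 2.36 to −1.96 and psd from 0.10 to −0.93, with Vm32E then at 0.82.

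Against the age controls at 25 °C, LP diapause ovaries had 5 of the 8 genes lower and 1 higher, where 71.9% of tested genes were called, 35.3% lower and 36.6% higher. Vm32E was at −2.81 (SE 0.79, adjusted p = 0.0064), Vm34Ca at −2.80 (SE 0.66, adjusted p = 0.0020), psd at −1.91 (SE 0.46, adjusted p = 0.0025), Vm26Aa at −1.34 (SE 0.35, adjusted p = 0.0036) and Vm26Ab at −0.79 (SE 0.32, adjusted p = 0.039). Vm26Ac was at −1.82 (SE 0.94) and not called (adjusted p = 0.0995), although its libraries were all below the age controls, as 37% of tested genes were. Vm26Ab, by contrast, was called with overlapping ranges. Leaving out LP diapause replicate 2 brought Vm26Ac to −6.15 (adjusted p = 8.5e-06), Vm32E to −5.16, Vm34Ca to −4.32, psd to −2.94, Vm26Aa to −1.85 and Vm26Ab to −1.04. The Vm26Ab call was kept in 2 of 6 fits with 1 library left out, and was lost without diapause replicate 1 (−0.78, adjusted p = 0.082) or 3 (−0.59, adjusted p = 0.14) and without age control replicate 1 (−0.56, adjusted p = 0.16) or 2 (−0.69, adjusted p = 0.10).

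HP diapause ovaries had all 6 structural genes lower and fs(1)N higher than HP age controls, where 68.6% of tested genes were called, 34.7% lower and 34% higher. The log2 fold change was −6.14 for Vm32E (SE 1.27, adjusted p = 0.00084), −5.42 for Vm26Ac (SE 1.82, adjusted p = 0.018), −4.62 for Vm34Ca (SE 0.74, adjusted p = 0.00011), −2.51 for psd (SE 0.53, adjusted p = 0.00093), −2.48 for Vm26Aa (SE 0.36, adjusted p = 4.4e-05) and −1.43 for Vm26Ab (SE 0.32, adjusted p = 0.0016). None of the 6 overlapped between the groups, and 34.7% of tested genes were lower in diapause without overlap. The Vm26Ac call was lost without HP diapause replicate 1, 2 or 3 or HP age control replicate 2, with an adjusted p of up to 0.055 and log2 fold changes of −5.77 to −4.87. The difference between the lines in this comparison called 0 of the 8 genes, where 18.4% of tested genes were called. At an unadjusted p under 0.05 there were 2 of 8, where 31.6% of tested genes passed. DESeq2 called 1, Vm32E (3.35, adjusted p = 0.022), where it called 20.5%. Without LP diapause replicate 2 the edgeR difference moved from 3.60 to −0.72 for Vm26Ac and from 0.60 to −0.43 for psd. It was then 0.98 for Vm32E, 0.30 for Vm34Ca, 0.64 for Vm26Aa and 0.40 for Vm26Ab, with 0 of the 8 called.

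Reproductive ovaries at 12 °C had 1 structural gene called against the age controls in LP and 0 in HP. In LP, Vm34Ca was the only structural gene called (−1.74, SE 0.63, adjusted p = 0.027), and with fs(1)N made 2 of 8 genes called, where 67.6% of tested genes were. Of the 8, 2 were lower in every LP reproductive library than in any LP age control, as 36.7% of tested genes were, and 1 was higher, as 35.9% were. That Vm34Ca call was kept in 2 of 6 fits with a library left out, and was lost without LP reproductive replicate 1 (−1.60, adjusted p = 0.082) or 3 (−1.70, adjusted p = 0.071) and without LP age control replicate 1 (−1.70, adjusted p = 0.054) or 2 (−1.55, adjusted p = 0.071). In HP only fs(1)N was called, 1 of 8, where 65.3% of tested genes were, 33.1% lower and 32.2% higher. Structural genes that were not called ranged over −0.96 to −0.14 in LP and −1.38 to −0.05 in HP. In HP, 4 of them (Vm26Ac, Vm32E, Vm34Ca and psd) were nevertheless lower in every reproductive library than in any age control, as 34% of tested genes were. The difference between the lines here called 0 of 8 genes, where 16.6% of tested genes were called. At an unadjusted p under 0.05 there were 0 of 8, where 29.7% of tested genes passed, and DESeq2 called 0.

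fs(1)N was higher in both 12 °C states than in the age controls. Its levels were 489, 539.6 and 559 CPM in LP diapause, 525, 456 and 500.2 CPM in LP reproductive ovaries and 378, 357 and 315 CPM in LP age controls. In HP they were 594, 523 and 549 CPM in diapause, 588, 607 and 589 CPM in reproductive ovaries and 467, 425 and 425 CPM in age controls. The 12 °C libraries lay above the age controls without overlap in each line. In LP, 38.5% of tested genes showed that order for diapause and 35.9% for reproductive ovaries. In HP the shares were 34.5% and 33.7%. The log2 fold changes against the age control were 0.60 in LP diapause (SE 0.07, adjusted p = 2.8e-07), 0.50 in LP reproductive ovaries (SE 0.07, adjusted p = 4.1e-06), 0.34 in HP diapause (SE 0.07, adjusted p = 0.00030) and 0.44 in HP reproductive ovaries (SE 0.07, adjusted p = 2.1e-05). Each of these 4 calls was kept in 6 of 6 fits with a library left out. When libraries were scaled by total counts instead of TMM, the median of all genes against the age control moved to −0.20 in LP diapause, −0.19 in LP reproductive ovaries, −0.13 in HP diapause and −0.10 in HP reproductive ovaries, and all 4 fs(1)N calls stayed higher. Diapause and reproductive ovaries, both from 12 °C, overlapped in fs(1)N in each line.

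tsl was rare, at 72 to 92 counts per library in LP and 30 to 59 in HP. It had 4.46, 4.47 and 4.40 CPM in LP diapause, 4.67, 4.70 and 3.81 CPM in LP reproductive ovaries and 4.24, 3.30 and 3.10 CPM in LP age controls. It had 1.79, 2.21 and 2.22 CPM in HP diapause, 2.29, 1.99 and 3.37 CPM in HP reproductive ovaries and 1.48, 2.71 and 2.33 CPM in HP age controls. The comparisons between states within a line called it in 0 of 6 cases, with log2 fold changes between −0.29 and 0.33. Every LP library of a state was above every HP library of that state. Of tested genes, 24.3% showed that order in diapause, 27.8% in reproductive ovaries and 22.7% in age controls.

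The make-up of the structural transcripts differed between states as well as their sum. Of the counts of the 6 genes together, Vm34Ca took 6.36, 18.9 and 7.91% in the LP diapause libraries, 15.2 to 17.4% in LP reproductive ovaries and 29.7 to 32.3% in LP age controls. In HP it took 4.19 to 6.38% in diapause, 18.5 to 19.98% in reproductive ovaries and 24.1 to 26.1% in age controls. Vm26Ab ran the other way in HP, with 43.3 to 52.0% in diapause, 29.6 to 33.0% in reproductive ovaries and 21.8 to 24.1% in age controls. The 3 HP states did not overlap in either share, and LP diapause replicate 2 lay nearer to the reproductive libraries than to its own group in both. In LP, Vm26Ab took 38.5, 20.8 and 27.8% in diapause, 15.3 to 18.6% in reproductive ovaries and 11.7 to 17.6% in age controls.

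Within the cluster the counts of Vm26Aa per count of Vm26Ab, its neighbour beyond Vm26Ac, were 2.02 ± 0.574 in LP diapause, 3.26 ± 0.248 in LP reproductive ovaries and 3.20 ± 0.764 in LP age controls (SD, n = 3 each). In HP the ratio was 0.961 ± 0.156 in diapause, 1.40 ± 0.102 in reproductive ovaries and 1.98 ± 0.101 in age controls, with no overlap between the states. Counts of psd per count of Vm26Aa were 0.0435 ± 0.0164 in LP diapause, 0.0809 ± 0.00949 in LP reproductive ovaries and 0.0737 ± 0.00566 in LP age controls, with diapause below both other states and no overlap. In HP they were 0.0688 ± 0.00112 in diapause, 0.0577 ± 0.00575 in reproductive ovaries and 0.0718 ± 0.00524 in age controls. In HP this ratio overlapped between diapause and age controls, and that of Vm26Aa to Vm26Ab did not. In LP diapause, replicate 2 was highest of its group in both ratios, at 2.47 for Vm26Aa to Vm26Ab and 0.0624 for psd to Vm26Aa, against 1.37 and 0.0332 in replicate 1 and 2.21 and 0.0349 in replicate 3.

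**Figure D3:**
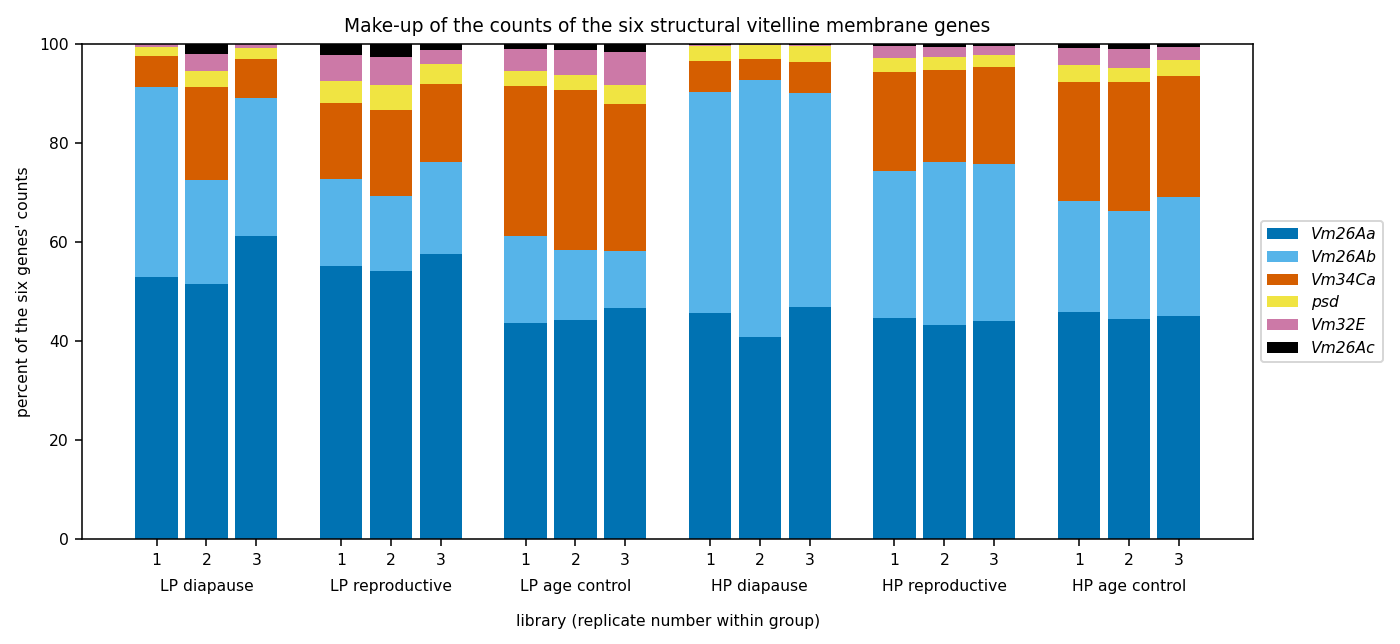
Share of each of the 6 structural genes in their summed counts, in percent, 1 bar per library, with LP groups left of HP groups. Vm26Ab takes 43.3 to 52.0% in HP diapause and 21.8 to 24.1% in HP age controls, while Vm34Ca takes 4.19 to 6.38% and 24.1 to 26.1% in the same groups.

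LP was set against HP within each state. In diapause 7 of the 8 genes were higher in LP, where 32.6% of tested genes were called and 17.4% called higher. The log2 fold changes of LP over HP were 5.66 for Vm26Ac (SE 1.80, adjusted p = 0.029), 5.39 for Vm32E (SE 1.32, adjusted p = 0.0074), 3.57 for Vm34Ca (SE 0.72, adjusted p = 0.0022), 2.57 for Vm26Aa (SE 0.36, adjusted p = 0.00014), 2.08 for psd (SE 0.53, adjusted p = 0.0096), 1.48 for Vm26Ab (SE 0.32, adjusted p = 0.0037) and 1.10 for tsl (SE 0.24, adjusted p = 0.0016). None of these 7 overlapped between the lines, an order that 24.3% of tested genes showed. Without LP diapause replicate 2 the Vm26Ac call was lost (1.33, adjusted p = 0.56), and the other 6 remained called at smaller or like sizes, with 3.03 for Vm32E, 2.04 for Vm34Ca, 2.07 for Vm26Aa, 1.05 for psd, 1.23 for Vm26Ab and 1.09 for tsl. Vm26Ac was also lost without HP diapause replicate 1, 2 or 3, at log2 fold changes of 5.26 to 5.99. fs(1)N was at −0.07 (SE 0.07) and not called.

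In reproductive ovaries 5 of the 8 genes were higher in LP and fs(1)N lower, where 35.1% of tested genes were called, 18.4% higher and 16.7% lower. Vm26Ac was at 3.30 (SE 1.06, adjusted p = 0.029), Vm32E at 2.22 (SE 0.79, adjusted p = 0.045), psd at 1.98 (SE 0.47, adjusted p = 0.0063), Vm26Aa at 1.48 (SE 0.35, adjusted p = 0.0056) and tsl at 0.79 (SE 0.24, adjusted p = 0.014). fs(1)N was at −0.27 (SE 0.07, adjusted p = 0.0068). Vm34Ca was at 0.89 (SE 0.62, adjusted p = 0.30) and Vm26Ab at 0.27 (SE 0.31, adjusted p = 0.55). With 1 library left out, the call was kept in 1 of 6 fits for Vm32E, 2 for Vm26Ac and 4 for tsl, and in each fit for psd, Vm26Aa and fs(1)N. The Vm32E call was lost without HP reproductive replicate 1, 2 or 3 or LP reproductive replicate 1 or 2 (2.45, 2.07, 2.17, 2.25 and 1.84), and the Vm26Ac call without those HP replicates or LP reproductive replicate 2 (3.43, 3.27, 3.21 and 2.83). The tsl call was lost without HP reproductive replicate 1 or 2 (0.72 and 0.63).

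In age controls 6 of the 8 genes were higher in LP and fs(1)N lower, where 41.9% of tested genes were called, 19.9% higher and 21.9% lower. Vm32E was at 2.06 (SE 0.76, adjusted p = 0.045), Vm34Ca at 1.75 (SE 0.63, adjusted p = 0.042), psd at 1.48 (SE 0.45, adjusted p = 0.019), Vm26Aa at 1.44 (SE 0.35, adjusted p = 0.0049), Vm26Ab at 0.84 (SE 0.32, adjusted p = 0.0498) and tsl at 0.70 (SE 0.24, adjusted p = 0.022). Vm26Ac was at 2.06 (SE 0.94) and not called (adjusted p = 0.10). fs(1)N was at −0.33 (SE 0.07, adjusted p = 0.0010), with every LP library below every HP one, as 23.4% of tested genes were. The count of the 8 genes called was 2 without HP age control replicate 1 and 3 without HP age control replicate 3 or LP age control replicate 1 or 2, and Vm26Aa and fs(1)N were called in each of the 6 fits. Genes of other groups were called between the lines too, in some cases near the share of all tested genes. Of the 11 tested chorion genes, 7 were higher in LP among reproductive ovaries, 1 among age controls and 0 in diapause. All 10 muscle markers were higher in LP among age controls, while 2 were lower among reproductive ovaries and 0 were called in diapause. In diapause 3 of the 4 yolk genes were higher in LP, and 1 without LP diapause replicate 2. Of all tested genes, 17.4% were called higher in LP in diapause, and 13.5% without that library. For reproductive ovaries 18.4% were called higher and 16.7% lower. Among age controls 9 of 16 mid-oogenesis follicle cell regulators and 6 of 12 early follicle and escort cell genes were lower in LP. The part of these in the line differences was not tested.

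**Figure D4:**
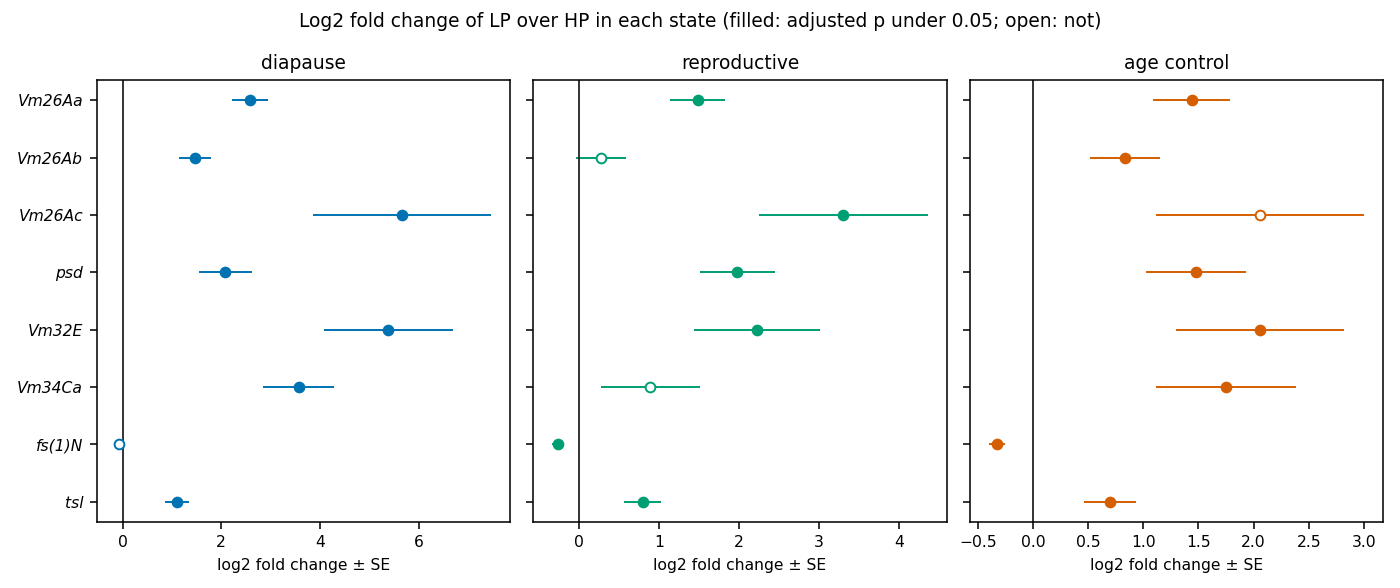
Log2 fold change of LP over HP for each gene in diapause, reproductive and age-control ovaries, with the SE as a bar and filled where the adjusted p is under 0.05. Values of the structural genes and tsl lie right of 0 in all 3 states, and fs(1)N lies at −0.07, −0.27 and −0.33.

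A list of 8 other genes of the vitelline membrane and its anchoring held members lower and members higher in diapause than in age controls. Vml, a vitelline membrane-like protein, dec, an eggshell protein cleaved during assembly of the inner layers, and yellow-g and yellow-g2, needed for a rigid eggshell, were lower in diapause in both lines. The list had 4 genes lower and 3 higher in LP diapause than in LP age controls, and 5 lower and 3 higher in HP diapause than in HP age controls. The shares over all tested genes were 71.9% called in LP and 68.6% in HP, about evenly lower and higher. The 3 higher were the same in both lines: fs(1)M3 (polehole) and clos (closca), germline genes that act with fs(1)N, and Cad99C, a cadherin of follicle cell microvilli. Against the age control clos was at 0.77 in LP diapause and 0.38 in HP diapause (SE 0.08 each, adjusted p = 4.1e-08 and 0.00030), and fs(1)M3 was at 0.86 and 0.74 (SE 0.09 each).

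Between diapause and reproductive ovaries 1 of these 8 genes was called in LP, ndl (Nudel, a protease of the eggshell that starts dorsal-ventral patterning and eggshell cross-linking), at −0.69 (SE 0.13, adjusted p = 0.028). In HP 0 of 8 were called, with Vml at −2.50 (SE 0.60, adjusted p = 0.079). Averaged over the lines, 5 of 8 were lower, among them Vml at −2.14 (SE 0.40, adjusted p = 0.0095) and dec at −2.47 (SE 0.53, adjusted p = 0.015). Of all tested genes, 1.45% were called in LP and 0.852% in HP, and 5.94% were called lower in the average. Without LP diapause replicate 2 the LP comparison called 3 of 8, all lower, with Vml at −3.04 (adjusted p = 0.00078), dec at −4.04 (adjusted p = 1.9e-05) and ndl at −0.87 (adjusted p = 0.00037), and the average of both lines called 4 of 8. The shares of all genes then called lower were 1.89% in LP and 5.99% in the average. Vml averaged 105 ± 106 CPM in LP diapause and 361 ± 81.2 CPM in LP reproductive ovaries, and 15.8 ± 6.46 CPM in HP diapause and 90.6 ± 19.7 CPM in HP reproductive ovaries.

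The genes that pattern the embryo through the membrane act in the terminal and dorsal-ventral systems. Of 10 listed, 6 were lower and 3 higher in LP diapause than in LP age controls, and 4 lower and 3 higher in the HP comparison, beside 71.9% and 68.6% of all tested genes called. spz, the ligand of Toll, was at −1.43 in LP and −1.39 in HP (SE 0.08 each), and tor, the receptor that the tsl cue helps to activate, at −1.22 and −1.28 (SE 0.08 each). Against reproductive ovaries, 1 of the 10 was called in LP diapause (spz, −0.35, SE 0.08, adjusted p = 0.045) and 0 in HP, beside 1.45% and 0.852% of all tested genes.

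Chorion genes encode the outer eggshell layers. Of 11 tested chorion genes, all 11 were lower in LP diapause than in LP age controls, with a median log2 fold change of −9.44, beside −1.58 for the 8 vitelline membrane genes. Without LP diapause replicate 2 these medians were −10.32 and −2.40, with all 11 chorion genes still lower. All 11 were also lower in HP diapause than in HP age controls, with a median of −10.08, beside −2.50. Between reproductive ovaries and age controls, 7 of 11 were lower in LP (median −2.86, beside −0.42) and 10 of 11 in HP (median −6.61, beside −0.69). Between diapause and reproductive ovaries 2 of 11 were lower in LP (median −6.45) and 0 in HP (median −3.17). Of all tested genes, 35.3% in LP and 34.7% in HP were called lower in diapause than in age controls. The shares were 33.7% and 33.1% for reproductive ovaries against age controls, and 1.11% and 0.653% for diapause against reproductive ovaries. HP reproductive ovaries held 0.103 to 0.150% of counts in the 6 structural genes with 0.00293 to 0.0591% in chorion genes, and HP age controls held 0.152 to 0.275% with 0.352 to 0.660%. LP reproductive ovaries held 0.0331 to 0.187% of counts in chorion genes, against 0.000593 to 0.00273% in LP diapause. The part of chorion-stage follicles was not tested, either in the differences between 12 °C and 25 °C or in those between diapause and reproductive ovaries.

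**Figure D5:**
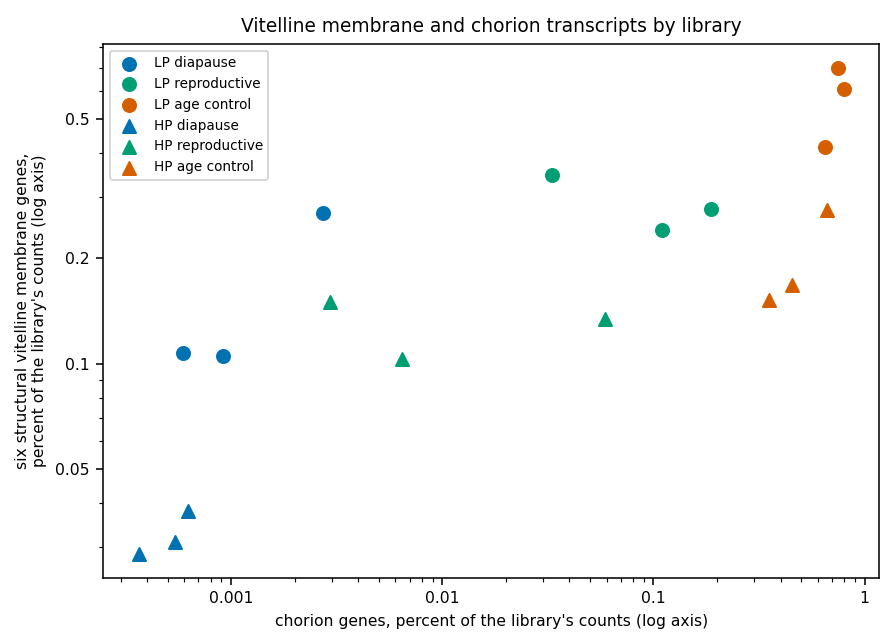
Percent of counts in the 6 structural genes against percent in 12 chorion genes, 1 point per library, both axes log; circles are LP and triangles HP. HP diapause libraries lie at the lower left, age controls at the right, and LP diapause replicate 2 lies above the other 2 LP diapause libraries.

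Markers of other cells also differed between some groups. The 10 muscle markers took 0.102 to 0.131% of counts in LP diapause, 0.0570 to 0.0929% in LP reproductive ovaries and 0.0579 to 0.0815% in LP age controls. In HP they took 0.122 to 0.141% in diapause, 0.0994 to 0.107% in reproductive ovaries and 0.0191 to 0.0312% in age controls. Against the age controls 9 of 10 were higher in LP diapause and 10 of 10 in HP diapause, none of the 10 was at 0 in any group, and their part in the results above was not tested. The 16 regulators of mid-oogenesis follicle cells had 0 called between diapause and reproductive ovaries in either line, with a median log2 fold change of 0.03 in LP and −0.04 in HP. In the average of both lines 1 of the 16 was lower, and 2 without LP diapause replicate 2. Of all tested genes, 5.94% were called lower in that average, and 5.99% without that library. In the single lines 1.45% of all tested genes were called in LP and 0.852% in HP. Against the age controls 10 were higher and 3 lower in LP diapause, and 11 higher and 4 lower in HP diapause. In these comparisons with the age controls, 36.6% of all tested genes were called higher and 35.3% lower in LP. In HP 34% were called higher and 34.7% lower.

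Yolk, germline and other lists were read in the same fit. Of the 3 yolk protein genes and the yolk receptor gene yl, 0 passed in either line when diapause was set against reproductive ovaries, and 3 were lower in the average of both: Yp1 at −0.68, Yp2 at −0.46 and Yp3 at −0.76. Of all tested genes, 1.45% were called in LP and 0.852% in HP, and 5.94% were called lower in the average. Without LP diapause replicate 2, 1 yolk gene was lower in LP, Yp3 at −0.97 (adjusted p = 0.028), and 3 were lower in the average. The shares of all genes then called lower were 1.89% and 5.99%. Against the age controls, yl was at 0.66 in LP diapause and 0.55 in HP diapause, and Yp3 at −0.81 and −1.04 (SE 0.08 for yl and up to 0.23 for Yp3). Of 11 germline genes, 5 were higher and 4 lower in LP diapause than in LP age controls, and 4 higher and 5 lower in HP diapause than in HP age controls, beside 71.9% of all tested genes called in LP and 68.6% in HP. Of 12 early follicle and escort cell genes, 10 were higher and 1 lower in the LP comparison, and 7 higher and 2 lower in the HP one. Haemocyte markers (5 of 8 tested) took 0.0272 to 0.0352% of counts in all libraries, with 0 called in LP diapause and 2 higher in HP diapause against the age controls, and He at 0 in LP diapause, HP diapause, HP reproductive and LP age control ovaries. Fat body markers (2 of 6 tested) took at most 0.00439% in any library, with 0 called in LP diapause and 1 lower in HP diapause against the age controls.

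Over the 18 libraries, log2 CPM of the 6 structural genes correlated with each other at Pearson's r of 0.821 to 0.984 (15 pairs). fs(1)N correlated with them at −0.664 to −0.537 and tsl at 0.385 to 0.630. These correlations are descriptions, since the libraries share lines and states. The genes most like the mean profile of all 8 were CG12398 (r = 0.964), Vml (0.962), St4 (0.957), the yolk protein gene Yp3 (0.948), dec (0.940), Ir7c (0.938), CG4842 (0.930), CG3823 (0.924), Cad88C (0.924) and drd (0.918). fs(1)N was most like clos (r = 0.970), orb, a germline RNA-binding protein (0.968), and CG4554 (0.967), over the same 18 libraries. clos averaged 549.6 ± 27.0 CPM in LP diapause, 523 ± 20.8 CPM in LP reproductive ovaries and 322 ± 51.3 CPM in LP age controls, and 648 ± 33.4, 676 ± 4.82 and 497 ± 23.8 CPM in the same HP groups. tsl was most like Prosalpha5 (0.928), Acat1 (0.921) and CG5835 (0.918).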

How the data were processed

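Counts were used as deposited: raw read counts per gene in 18 libraries, not normalised, in the layout that featureCounts writes, per the file headers. Trimmomatic, STAR, featureCounts and DESeq2 are the tools listed, per the submitters' processing notes. Their settings, the genome build, strand use and the treatment of multiply matched reads are not given in the sources used here. All 18 sample columns were used. Symbols came from the Ensembl BDGP6.54 annotation (17556 of 17611 identifiers).

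edgeR 4.0.16 (R 4.3.3, limma 3.58.1) fitted a robust quasi-likelihood model with 1 mean per group and no covariate to 18 libraries after filterByExpr (9037 genes, 12 residual degrees of freedom, biological coefficient of variation 0.0973). Calls needed an adjusted p (Benjamini-Hochberg) under 0.05. No 2 replicates agreed within sampling noise (lowest chi-square per degree of freedom 4.31). Correlations used log2 CPM with a prior count of 2. DESeq2 1.42.0, other scalings and filters, a replicate block and left-out libraries were alternatives.

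The 8 genes, 10 further gene lists and the comparisons were chosen with earlier results of these data known. All 8 genes were tested in every comparison, and some are given only within a count or a range. To be named besides them were up to 4 called genes of smallest p from each other list. The 10 genes most like the mean profile and the 3 most like each gene were also to be named. Some of these are given only in part. The self-test on simulated counts was run before the fit. Some genes had few counts, such as Vm26Ac and Vm32E in HP diapause, and the part of counting error in their SEs was not tested. Sequences are not printed here.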

Additional observations from a re-analysis of the deposited data

How the results depend on the processing

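The count of the 8 genes called depended most on the diapause against reproductive comparison. In HP (2 called) it was 1 with no filter, 4 without robust estimation, 6 with DESeq2, 6 with the compared groups fitted alone and 0 to 1 with a library left out. In LP (0 called) it was 1 with DESeq2 and 0 to 5 with a library left out. Over all tested genes DESeq2 called 314 in HP (77 with edgeR, 7 to 45 with a library left out) and 441 in LP (131 with edgeR, 6 to 247 with a library left out), and 6 in the difference between the lines (0 with edgeR). The compared groups alone gave 2 for LP diapause against age control (6), 3 for HP reproductive against age control (1) and 3 for LP over HP in diapause (7). LP over HP in age controls (7) gave 4 with no filter and 2 to 7 with a library left out, LP over HP in reproductive ovaries (6) gave 3 to 6 and LP reproductive against age control (2) gave 1 to 3. The line difference of diapause against age control (0) gave 1 with DESeq2 and 0 to 1 with a library left out.

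The sign turned in 40 refits of 15 single-gene values, none called in either fit. Under total counts these were tsl in LP diapause over reproductive (−0.0247), fs(1)N averaged over lines (−0.0370) and, for the line difference of reproductive against age control, Vm26Aa (−0.0374) and fs(1)N (−0.0158). fs(1)N averaged over lines was also −0.00308 with DESeq2 size factors, −0.00203 with no filter and −0.00305 with DESeq2. With a library left out the ranges were −0.0757 to 0.0700 for tsl and −0.417 to 0.0285 for Vm26Ab in LP diapause over reproductive, −0.29 to 0.11 for tsl in HP diapause over age control, −0.23 to 0.23 for Vm26Ab and −0.0372 to 0.398 for tsl in HP reproductive over age control, and −0.61 to 0.14 for Vm26Ac in LP reproductive over age control. fs(1)N averaged over lines ranged over −0.0247 to 0.0282. Line differences ranged over −1.96 to 2.93 for Vm26Ac and −0.93 to 0.46 for psd (diapause against reproductive), −0.72 to 4.18 for Vm26Ac and −0.43 to 0.96 for psd (diapause against age control), and −0.27 to 0.20 for Vm26Aa, −0.33 to 0.44 for Vm32E, −0.0948 to 0.341 for tsl and −0.00544 to 0.117 for fs(1)N (reproductive against age control).

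Replicate numbers did not pair the libraries: same-numbered libraries correlated at −0.137 to 0.164 within a line (2 of 18 over 0.1) and −0.0574 to 0.0911 between lines. With a replicate block the counts called were as without it, except 7 for LP diapause against age control (6), where Vm26Ac became called. In LP over HP among age controls the block left 7, with Vm26Ab lost and Vm26Ac gained. Line differences under the block were −0.10 for psd (diapause against reproductive) and −0.0723 for Vm32E (reproductive against age control). Leaving LP diapause replicate 2 out of the other gene lists and the order per kb was chosen after seeing the data. Counts were low for Vm26Ac and Vm32E in HP diapause and for tsl, a limit on their values. The cause of each change was not tested.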
